A study of Sus scrofa with 31 samples.

Results

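SLC2A5, the gene of the fructose transporter GLUT5, was 1 of the 31907 Ensembl genes in the count table. It was found by its identifier, ENSSSCG00000039651, and it was chosen on its microglial and regional levels in these same samples. Its own values are therefore given as a description, with fold changes and standard errors but no p-values. RNA was sequenced from 31 samples of 15 pigs in 5 groups. Microglia were sorted as cells high for CD11b and low or negative for CD45 from dissociated cerebellum, hippocampus and frontal cortex (n = 8 samples each). The comparators were alveolar macrophages (n = 3), sorted from lung lavage as F4/80+ cells with low or no CD163, and whole hippocampal tissue (n = 4).

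All animals were male piglets in the fourth week of life, 1 per litter, from Large White × Landrace sows and pooled Danish Duroc semen. They were born into standard or freer pens, a difference that the sample labels do not record. All were sedated and anesthetized for imaging before death, and none carried a genetic change or an experimental treatment. The tag numbers showed 9 pigs with more than 1 sample. Microglia of more than 1 region came from 7 pigs, and hippocampal microglia and tissue from the same animal for 4 pigs. Microglia and alveolar macrophages were both present for 2 pigs. RNA of sorted cells was extracted on magnetic beads and that of tissue with QIAzol and columns, so extraction and group cannot be told apart in the tissue comparison.

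GLUT5 is a facilitative sugar carrier that moves fructose across the cell membrane and takes up little or no glucose. It is best known for fructose absorption in the small intestine. In brain it is used as a microglial marker, while neurons and endothelium use mainly other members of the SLC2 family. Fructose that enters a cell can be phosphorylated by ketohexokinase or, with lower affinity, by hexokinases. It can also be made inside a cell from glucose by the polyol pathway.

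On Sscrofa11.1 the RefSeq gene lay on the minus strand of chromosome 6, at 69507829 to 69535794, and its exons covered 2570 bases. The nearest gene was SLC2A7, another sugar transporter gene, 4070 bp beyond its 3' end and on the same strand, followed by CA6, which encodes a secreted carbonic anhydrase. On the other side GPR157, which encodes a G protein-coupled receptor, lay 23145 bp away, also on the minus strand. The window of 250 bases before the RefSeq start of SLC2A5, chr6:69535795-69536044, is given as the sequence next to the measured transcript. It is printed 5' to 3' on the strand of the gene, with the matches to the motifs searched in capitals.
SLC2A5 upstream window: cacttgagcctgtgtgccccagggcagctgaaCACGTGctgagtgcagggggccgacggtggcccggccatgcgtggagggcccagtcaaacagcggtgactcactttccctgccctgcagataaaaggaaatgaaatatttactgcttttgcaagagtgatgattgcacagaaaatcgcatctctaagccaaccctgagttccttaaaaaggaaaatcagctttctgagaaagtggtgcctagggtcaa
4 short motifs were searched on both strands in the same window of 20667 RefSeq protein-coding genes. The E-box CACGTG, which is its own reverse complement, matched 1 time in SLC2A5, starting 218 bases before the gene start, and was present in 6.16% of windows. No match was found for GAGGAA, a longer form of the ETS motif that PU.1 binds (22.0% of windows), the GC box GGGCGG (44.4%) or the TATA box TATAAA (10.4%). Shorter forms of the ETS motif were not searched. G or C made up 52.0% of its bases, against a median of 57.2% over all windows. A match is a description of letters and not a site in use.

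The gene counts of a sample summed to between 18438494 and 43477403 (median 29243994), and 3 counts, the floor used here, were worth 0.069 to 0.163 CPM (TMM-normalized counts scaled to a common library total). This floor covers counting error only, because PCR copies are not independent molecules. The microglia markers TMEM119, P2RY12, CX3CR1, SALL1 and TREM2 summed to 2018 to 3692 CPM in microglia, 14.8 to 26.9 in alveolar macrophages and 116 to 197 in tissue. Markers of astrocytes, oligodendrocytes, neurons and endothelium, of which 21 of 22 had a row, summed to 412 to 2344 CPM in microglia and to 20017 to 30831 in tissue. In alveolar macrophages, cells from outside the brain, the same sum was 269 to 449 CPM. The sum passed 1000 CPM in 5 microglia samples, from the cerebellum of pigs 12583, 12599 and 12902 and the frontal cortex of pigs 12599 and 12891. In the alveolar macrophage samples MARCO and FABP4, 2 of the 6 alveolar macrophage markers, had no count, and MARCO had none in any of the 31 samples. The 6 markers together summed to 132 to 252 CPM in alveolar macrophages, against 8.70 to 57.1 CPM in microglia. In the alveolar macrophage samples 5 lymphocyte markers summed to 514 to 1013 CPM and 4 neutrophil markers to 300 to 682 CPM, against at most 73.4 and 5.26 CPM in microglia. Their part in the comparison with alveolar macrophages was not tested.

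SLC2A5 was high in every microglia sample and low in every comparator. In cerebellar microglia it was at 301, 362, 364, 439, 459, 495, 500 and 516 CPM, with a mean of 429 ± 78.4 CPM (SD, n = 8). In hippocampal microglia the lowest sample was at 309 CPM, the median at 403 and the highest at 455, with a mean of 386 ± 56.6 (n = 8). In frontal cortex microglia it ran from 182 through a median of 229 to 305 CPM, with a mean of 234 ± 42.9 (n = 8). The order of the group means was thus cerebellum, hippocampus, frontal cortex, and the first pair overlapped widely. The 3 alveolar macrophage samples were at 14.9, 28.5 and 26.6 CPM (23.3 ± 7.36) and the 4 tissue samples at 10.3, 9.84, 6.08 and 8.15 CPM (8.58 ± 1.90). No comparator sample reached the level of any microglia sample, and the lowest macrophage sample was above the highest tissue sample. These values rested on 3826 to 15015 counts per microglia sample, 531 to 1217 per macrophage sample and 193 to 330 per tissue sample. If each count were an independent molecule, counting error would be small beside the spread between samples. PCR copies are not, so the number of molecules behind these counts is not known.

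**Figure D1:**
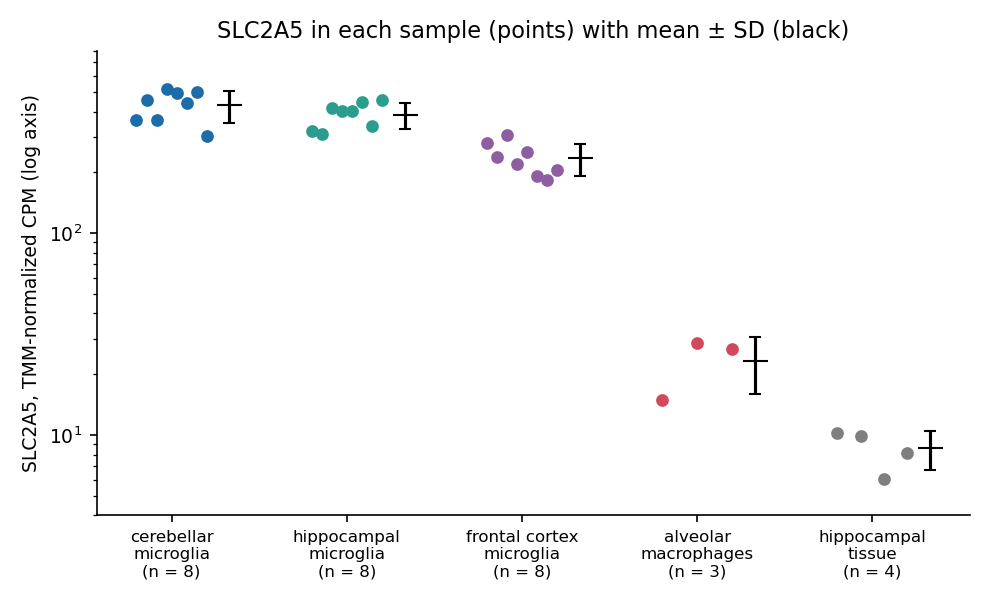
SLC2A5 in TMM-normalized CPM (log axis) for each of the 31 samples, by group, with the mean and SD of each group in black beside the points. All 24 microglia samples lie between 182 and 516 CPM, the 3 alveolar macrophage samples between 14.9 and 28.5, and the 4 tissue samples between 6.08 and 10.3.

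Levels of different genes can be compared only per length, and per kb of exon SLC2A5 was among the more abundant microglial transcripts. It was at 167 CPM per kb in cerebellar, 150 in hippocampal and 91.1 in frontal cortex microglia, which placed it at 130, 161 and 306 from the top among 14246 genes with a known exon length. In alveolar macrophages it was at 9.08 CPM per kb (place 4525) and in tissue at 3.34 (place 8236). Its spread among microglia samples of a region was no wider than that of a typical gene. The SD of its log2 CPM was 0.28 in cerebellar, 0.22 in hippocampal and 0.26 in frontal cortex microglia, where the medians over the 11633 genes tested were 0.35, 0.32 and 0.44. In alveolar macrophages its SD was 0.51 against a median of 0.27, and in tissue 0.34 against 0.17.

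The first comparison asked which genes set microglia apart from a macrophage of another organ. Averaged over the 3 regions, SLC2A5 was 14.5-fold higher in microglia than in alveolar macrophages (log2 fold change 3.86, SE 0.24), and all 24 microglia samples were above all 3 macrophage samples. The fold ranked 924 of the 11633 genes tested. In the pigs that gave both cell types, hippocampal microglia of pig 12821 had 403 CPM and its alveolar macrophages 14.9, and pig 12829 had 446 and 28.5 CPM. The ratios within these animals were 27.0 and 15.6. With the pig as a replicate block the log2 fold change was 4.36 in edgeR and 3.96 as a random effect in limma-voom.

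The second comparison set hippocampal microglia against the tissue they came from. SLC2A5 was 44.96-fold higher in the microglia (log2 fold change 5.49, SE 0.23), which ranked 36 of 11633 genes, and all 8 microglia samples were above all 4 tissue samples. Within the 4 pigs that gave both, the ratio was 39.3 in pig 12821, 45.3 in pig 12829, 55.5 in pig 12847 and 55.8 in pig 12872. In whole tissue, fewer cells of a type and less RNA per cell cannot be told apart. Alveolar macrophages had 2.72-fold more SLC2A5 than tissue (log2 fold change 1.44, SE 0.22), with ratios of 1.45 and 2.898 in the 2 pigs that gave both.

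Against 14 microglia reference genes, a list written with earlier results of these data known, SLC2A5 stood near the low end in tissue. Its tissue level was 2.22% of that in hippocampal microglia, and 1.79 to 2.55% in single pigs. Only CX3CR1, the fractalkine receptor (2.16%), and FCGR1A, an Fc receptor (2.19%), were lower, and FGD2, a guanine nucleotide exchange factor, was next above (2.53%). SALL1, a transcription factor, was highest at 21.9%. In alveolar macrophages SLC2A5 was at 6.67% of its microglial mean, place 10 of 15, below FGD2 (7.17%) and above TMEM119 (1.44%). All 14 reference genes passed in both comparisons as higher in microglia, where 12.2% of tested genes were called higher than in macrophages and 11.7% higher than in tissue. A call needed a Benjamini-Hochberg adjusted p under 0.01 in the quasi-likelihood test of edgeR and a fold over 3 against macrophages or over 4 against tissue.

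**Figure D2:**
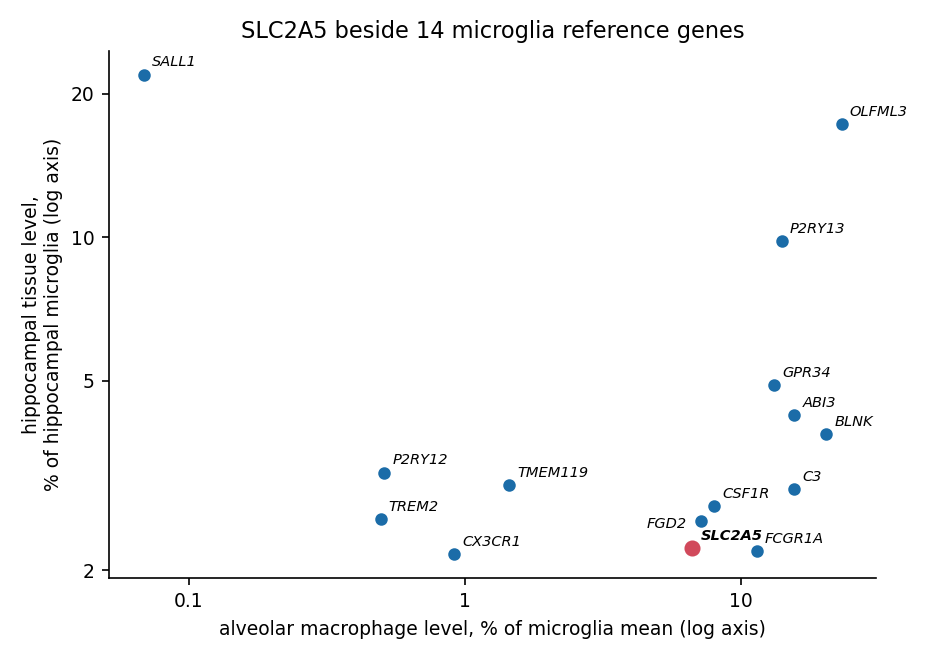
Level of SLC2A5 (red) and 14 microglia reference genes (blue) in alveolar macrophages as a percentage of the microglia mean (x, log axis) and in hippocampal tissue as a percentage of hippocampal microglia (y, log axis). SLC2A5 sits at 6.67% and 2.22%, near FGD2 and CSF1R, while SALL1 is highest in tissue at 21.9%.

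The third comparison asked how microglia differ between regions of the brain. SLC2A5 was 1.83-fold higher in cerebellar than in frontal cortex microglia (log2 fold change 0.87, SE 0.14) and 1.65-fold higher in hippocampal than in frontal cortex microglia (0.72, SE 0.14). Of the 8 cerebellar samples, 7 were above every frontal cortex sample, and so were all 8 hippocampal samples, although the lowest of these (309 CPM) was close to the highest frontal cortex sample (305 CPM). Cerebellar and hippocampal microglia differed by a log2 fold change of 0.15 (SE 0.14), with 4 of 8 cerebellar samples above every hippocampal sample, so over all samples the difference between these neighbours was close to its standard error. The 3 pairwise values share samples.

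The same order held inside single animals. Cerebellar microglia had more SLC2A5 than frontal cortex microglia in 6 of 6 pigs, by 1.46-fold in pig 12902 to 2.74-fold in pig 12891 (mean log2 difference 0.94 ± 0.34, SD). In pig 12891 the pair of values was 500 and 182 CPM, and in pig 12902 it was 301 and 206 CPM. Cerebellar exceeded hippocampal microglia in 4 of 4 pigs, by 1.13-fold to 1.67-fold (0.40 ± 0.24), higher than the unpaired value of 0.15. The replicate block gave a log2 fold change of 0.40 for these regions in edgeR and 0.18 in limma-voom. Hippocampal exceeded frontal cortex microglia in 3 of 3 pigs, by 1.23-fold to 1.76-fold (0.55 ± 0.26). The 3 pigs with all 3 regions had the order cerebellum, hippocampus, frontal cortex: 362, 320 and 220 CPM in pig 12750, 516, 309 and 251 in pig 12758, and 439, 338 and 192 in pig 12847.

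**Figure D3:**
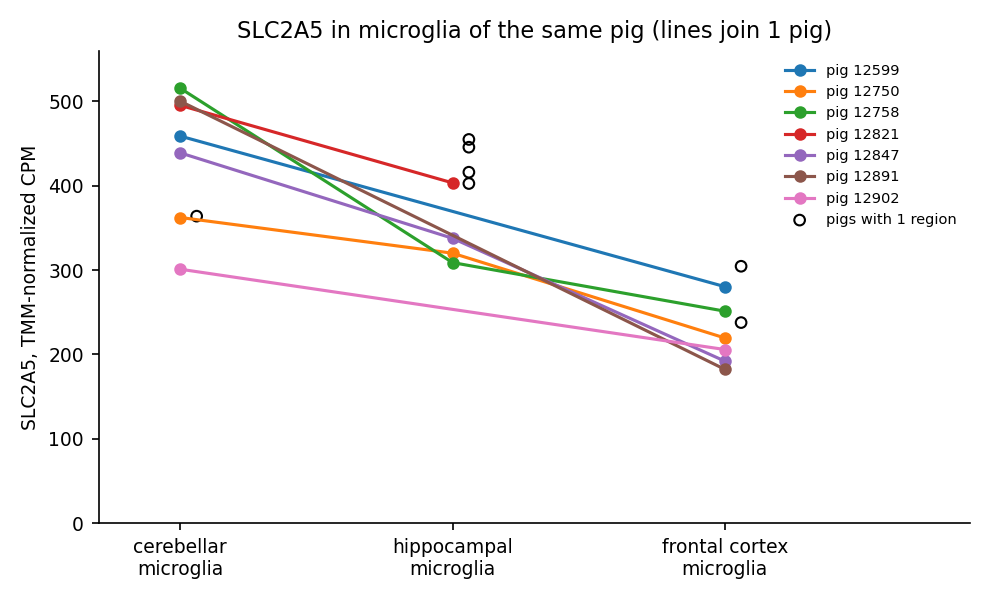
SLC2A5 in TMM-normalized CPM in microglia of the cerebellum, hippocampus and frontal cortex. Filled points joined by a line come from the same pig (7 pigs), open circles from pigs with 1 region, and every line falls from left to right.

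Of the 7 pigs with several regions, 4 were on the same side of the group means in all of theirs. Pig 12750 was below in all 3 regions, with deviations of log2 SLC2A5 from -0.26 to -0.07, and pig 12821 above in both of its (0.08 and 0.23). Pig 12902 was below the mean in both of its regions (-0.49 and -0.17) and pig 12599 above in both of its (0.12 and 0.28). In the other 3 pigs the deviation took both signs, such as from -0.34 in the frontal cortex to 0.24 in the cerebellum of pig 12891 and from -0.31 to 0.29 in pig 12758.

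The 2 frontal cortex samples with the highest marker sums, pig 12599 (2344 CPM) and pig 12891 (1831 CPM), had 280 and 182 CPM of SLC2A5, the second highest and the lowest of the group. Without the 5 microglia samples above 1000 CPM of such markers, a choice made after the values were seen, the log2 fold change was 0.97 for cerebellum over frontal cortex, 0.71 for hippocampus over frontal cortex and 0.26 for cerebellum over hippocampus. Against alveolar macrophages it was 3.89.

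The SLC2 family holds the facilitative transporters of glucose, fructose and related molecules. Of 12 other members listed, 11 had a row and 5 passed the filter of over 10 CPM in all samples of a group. SLC2A1, the glucose carrier of the blood-brain barrier, had no row matched by symbol and was not analysed here, so the shares and ranks that follow leave it out. Per kb of exon, SLC2A5 made up 74.3% ± 1.78 (SD) of the summed level of the 12 family genes with a row, itself included, in cerebellar microglia. The share was 75.5% ± 2.47 in hippocampal and 67.8% ± 3.34 in frontal cortex microglia, and 15.0% ± 5.10 in alveolar macrophages and 13.5% ± 3.33 in tissue. In microglia SLC2A9, a urate transporter, came next at 22.3 to 30.1 CPM per kb. In macrophages and tissue the highest of the 12 family genes with a row was SLC2A3, at 37.1 and 7.32 CPM per kb. It is a high-affinity glucose transporter best known from neurons.

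**Figure D4:**
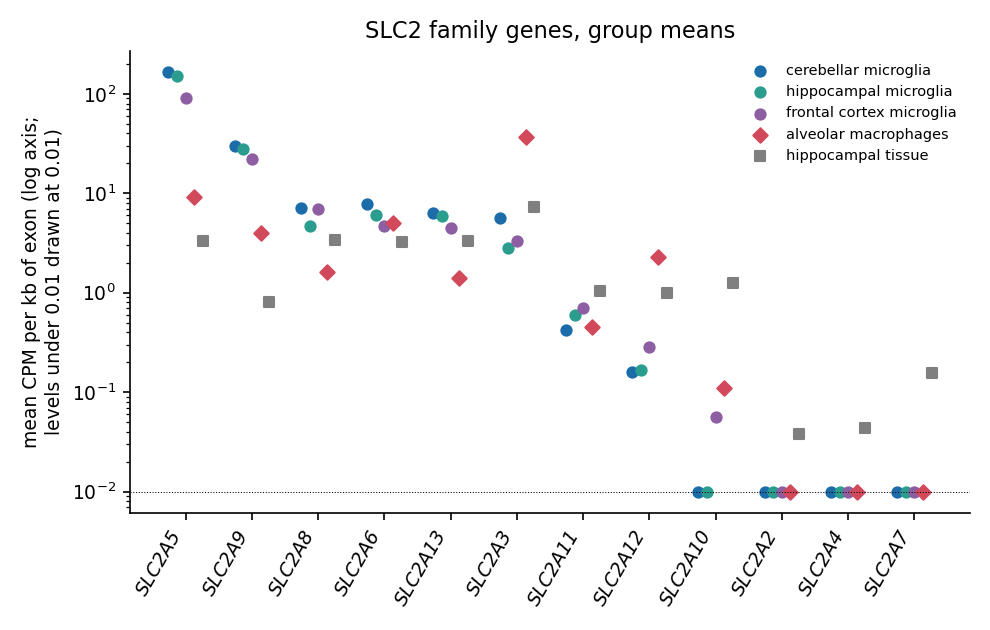
Group means of SLC2A5 and 11 other SLC2 family genes in CPM per kb of exon (log axis), one colour and marker per group, with levels under 0.01 drawn at 0.01. Among these genes, without SLC2A1, SLC2A5 is highest in the 3 microglia groups (167, 150 and 91.1) and SLC2A3 in alveolar macrophages (37.1) and tissue (7.32).

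Of the 5 family members tested, 3 were called higher in microglia than in alveolar macrophages and 1 lower, where 12.2% and 10.1% of all tested genes were. The median log2 fold change of the 5 was 1.91, and 0.06 over all tested genes. SLC2A9 was at 63.1 ± 17.7, 58.9 ± 13.4 and 46.6 ± 8.09 CPM in cerebellar, hippocampal and frontal cortex microglia and at 8.29 ± 3.78 in macrophages. It was 6.71-fold higher in microglia (adjusted p = 7.87e-08, edgeR). SLC2A8, an intracellular glucose transporter, had a 3.75-fold higher level in microglia (adjusted p = 1.56e-06, edgeR), at 9.43 to 14.1 CPM against 3.27 ± 0.129 in macrophages. SLC2A13, the proton-coupled inositol transporter, was 3.91-fold higher (adjusted p = 4.71e-08, edgeR), but with the replicate block in edgeR its log2 fold change was 1.40 and it was not called. SLC2A3 went the other way, with 13.2 to 26.4 CPM in microglia and 175 ± 22.9 in macrophages, a 9.92-fold lower level (adjusted p = 2.13e-13, edgeR). SLC2A6, a lysosomal member, was at 29.2 to 49.3 and 31.7 CPM and was not called.

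Against tissue, SLC2A9 was the 1 family member of the 5 called higher, at 58.9 CPM in hippocampal microglia and 1.71 ± 0.894 in tissue (34.4-fold, adjusted p = 6.08e-13, edgeR). None was called lower. Over all tested genes 11.7% were called higher and 22.1% lower. The median log2 fold change was 0.81, beside -0.08 over all tested genes. SLC2A3 was at 13.2 and 34.6 CPM and missed the fold threshold. The members that did not pass the filter were low in microglia. SLC2A2, SLC2A4 and SLC2A7, carriers of liver, muscle and intestine, had at most 2 counts in any microglia sample, and the most counts in a tissue sample was 50, for SLC2A7. SLC2A10 averaged at most 0.234 CPM, SLC2A11 2.96 CPM and SLC2A12 1.97 CPM in any microglia region, and SLC2A12 reached 16.0 ± 5.26 CPM in macrophages.

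Of the neighbours of SLC2A5 on the chromosome, SLC2A7 and CA6 had no count in any sorted sample. GPR157, which did not pass the filter, was at 14.5, 12.7 and 10.6 CPM in cerebellar, hippocampal and frontal cortex microglia, at 0.228 ± 0.207 in macrophages and at 0.497 ± 0.175 in tissue. The microglia means of GPR157 had the region order of SLC2A5, while its tissue mean was above its macrophage mean. Its microglia samples ran from 6.07 to 19.1 CPM and did not overlap those of the comparators, which stayed at or under 0.691 CPM. How the counting treated strand was not given in the sources used here.

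The fructose and polyol list held 8 genes, including the fructose bisphosphatases FBP1 and FBP2, which do not act on free fructose. All had a row, and 5 passed the filter. Of these 5, 2 were called higher in microglia than in macrophages (AKR1B1 and FBP1), 1 higher than in tissue (FBP1) and none lower. Over all tested genes 12.2% and 11.7% were called higher and 10.1% and 22.1% lower. The median log2 fold changes were 0.48 and 0.95, beside 0.06 and -0.08 over all tested genes. KHK, ketohexokinase, was at 32.6 ± 4.33, 27.2 ± 6.14 and 28.5 ± 8.00 CPM in cerebellar, hippocampal and frontal cortex microglia. In macrophages it was at 22.2 ± 4.58 CPM and in tissue at 25.8 ± 2.49 CPM, and the call was not made in either comparison (log2 fold changes 0.40 and 0.08). TKFC, the triokinase that phosphorylates glyceraldehyde, was at 21.9 to 33.2 CPM in microglia, 19.3 in macrophages and 13.8 in tissue, without a call, and GLYCTK, the glycerate kinase, at 2.78 to 6.06 CPM in microglia.

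Of the polyol pathway, AKR1B1, the aldose reductase that turns glucose into sorbitol, was at 123 ± 19.6, 119 ± 25.4 and 179 ± 32.3 CPM in cerebellar, hippocampal and frontal cortex microglia. It was 5.51-fold higher in microglia than in macrophages (25.01 ± 2.40 CPM, adjusted p = 1.63e-12, edgeR), while the 2.86-fold difference from tissue (41.5 ± 3.14 CPM) was under the fold threshold. SORD, which turns sorbitol into fructose, was at 6.87 to 8.41 CPM in microglia, 6.995 in macrophages and 15.4 in tissue, without a call. FBP1, the fructose bisphosphatase of gluconeogenesis, was at 34.3 ± 9.60, 46.6 ± 12.5 and 61.5 ± 15.45 CPM in the 3 microglia groups in the same order. It was 4.84-fold higher than in macrophages (9.52 ± 2.38 CPM, adjusted p = 1.88e-08, edgeR) and 22.7-fold higher than in tissue (2.06 ± 0.207 CPM, adjusted p = 2.80e-14, edgeR). FBP2, the muscle form, had no count in any sorted sample.

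Between regions, 2.03% of tested genes (236) were called at an adjusted p under 0.01, and with the pig as a replicate block 85 were called in edgeR and 333 in limma-voom. SLC2A5 is given no call. Of the 5 listed SLC2 family genes tested none was called, and SLC2A3 was nearest (adjusted p = 0.0154, edgeR). It was called under 7 of 42 settings. AKR1B1 was the 1 gene called of the 5 tested for fructose and polyols (adjusted p = 0.0032, edgeR). Its level was highest in frontal cortex, where that of SLC2A5 was lowest. The call was lost with the replicate block in edgeR (adjusted p = 0.0125), kept with the block in limma-voom (adjusted p = 0.000493), and lost without the 5 samples with high brain cell markers (adjusted p = 0.0130), and over all alternatives its adjusted p ran from 1.22e-05 to 0.0130. FBP1, also highest in frontal cortex, had an adjusted p of 0.0122 in edgeR and was called under 14 of 42 settings, among them the replicate block in edgeR (adjusted p = 0.00778).

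Glycolysis takes up sugar phosphates made from glucose or fructose. Of 25 genes for glycolysis and lactate transport, 24 passed the filter. Against macrophages 2 were called higher and 7 lower in microglia, and the median log2 fold change was -0.71. Against tissue 3 were called higher and 7 lower, with a median of -1.20. The shares over all tested genes were 12.2% higher and 10.1% lower against macrophages, and 11.7% and 22.1% against tissue, with medians of 0.06 and -0.08. HK2, a hexokinase, was called higher in both comparisons. It was at 368 ± 114, 345 ± 39.2 and 226 ± 38.0 CPM in cerebellar, hippocampal and frontal cortex microglia, at 52.1 ± 20.9 in macrophages (5.87-fold, adjusted p = 9.04e-10, edgeR) and at 18.1 ± 5.82 in tissue (19.0-fold, adjusted p = 1.53e-14, edgeR). SLC16A7, a monocarboxylate transporter, was also higher in both (5.12-fold and 4.84-fold), and SLC16A3, another, was 6.65-fold higher than in tissue.

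Lower in microglia than in macrophages were HK3 (7.31-fold), a second hexokinase, PFKP (54.9-fold), the platelet phosphofructokinase, and ALDOA (3.23-fold) and ENO1 (3.11-fold), an aldolase and an enolase. The others were LDHA (12.1-fold), a lactate dehydrogenase subunit, SLC16A1 (18.3-fold), a lactate transporter, and PFKFB2 (3.72-fold), which sets fructose 2,6-bisphosphate. PFKP ran from 0 to 16.4 CPM in microglia samples, against 112 ± 34.5 CPM in macrophages, so the size of its fold is uncertain. Its log2 fold change ran from -7.58 to -5.59 over the alternatives. LDHA was at 31.4 ± 4.44 CPM over the 24 microglia samples and at 379 ± 78.4 in macrophages. ENO1, close to the threshold of 3-fold, was not called under 10 of 37 alternatives, with log2 fold changes down to -1.35 without the macrophages of pig 12829. ALDOA was not called without that sample (-1.48). PFKFB2 was not called with the block in edgeR (adjusted p = 0.0156, edgeR). Lower than in tissue were PFKM, PFKP, ALDOC, TPI1, ENO2, SLC16A1 and PFKFB2, by 4.76-fold for TPI1 to 176-fold for ENO2. ENO2 and ALDOC are known as neuronal and astrocytic enzymes. No gene of this list was called between regions, but HK2 (adjusted p = 0.0174, edgeR) was called under 4 of 42 settings, among them DESeq2 (adjusted p = 0.00279) and the block in limma-voom (adjusted p = 0.00227), and PFKFB3, a regulator of glycolysis, under 1, DESeq2.

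MLXIPL, the carbohydrate response factor ChREBP, is known to act on the intestinal SLC2A5 gene together with its partner MLX. It was at 107 ± 32.97, 107 ± 17.5 and 78.0 ± 25.3 CPM in cerebellar, hippocampal and frontal cortex microglia. The 3 macrophage samples had at most 3 counts each (0 to 0.0843 CPM), so no fold is given for that pair, although the gene was called higher (adjusted p = 3.17e-16, edgeR). Against tissue (5.85 ± 1.16 CPM) it was 18.3-fold higher (adjusted p = 1.89e-12, edgeR). MLX was at 21.7 to 23.9 CPM in microglia, 27.6 in macrophages and 19.9 in tissue, without a call. Of the 10 genes of this list, all tested, 2 were called higher and 1 lower than in macrophages, and 3 higher and 2 lower than in tissue. Over all tested genes the shares were 12.2% and 10.1%, and 11.7% and 22.1%. The others were PPARA, a lipid-sensing receptor (8.41-fold higher than in macrophages), and ARRDC4, an arrestin-like gene (3.96-fold lower). Relative to tissue they were MLXIP, a paralog of MLXIPL (7.44-fold higher), TXNIP, a brake on glucose uptake (5.21-fold higher), and the thyroid hormone receptors THRA and THRB (13.9-fold and 19.1-fold lower). The median log2 fold changes were -0.20 and 0.82, beside 0.06 and -0.08 over all tested genes. No gene of the list was called between regions, except THRB under DESeq2 (adjusted p = 0.00186).

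The genes whose pattern was most like that of SLC2A5 were taken by Pearson's r of log2 CPM over the 24 microglia samples among 10123 tested genes with a symbol. These samples came from 14 pigs and 3 regions, so the points share animals, region and library composition, and r is given as a description. The median r over these genes was -0.03, with 62 genes over 0.7 and 17 under -0.7. The 10 highest were A2M, a protease inhibitor (0.89), PADI2, a peptidylarginine deiminase (0.88), FAM20C, a secretory pathway kinase (0.83), MID1IP1 (0.83), HK2 (0.83), GAS6, a ligand of the TAM receptors (0.83), ST6GAL1, a sialyltransferase (0.82), HSPB1, a small heat shock protein (0.82), FURIN, a proprotein convertase (0.81), and BCL6, a transcriptional repressor (0.80). A2M was at 814, 775 and 440 CPM and PADI2 at 618, 608 and 404 CPM in cerebellar, hippocampal and frontal cortex microglia. Both were picked by r over these samples, so a regional pattern like that of SLC2A5 follows from the choice. Their cerebellar and hippocampal levels differed by log2 fold changes of only 0.07 and 0.02. The 5 lowest were COL4A2, a basement membrane collagen (-0.82), ITGA9, an integrin (-0.82), MAML2, a Notch coactivator (-0.79), ERBIN, a scaffold protein (-0.76), and SELENOP, a selenium carrier (-0.75). COL4A2 was at 17.96, 32.6 and 133 CPM in the same order of regions.

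**Figure D5:**
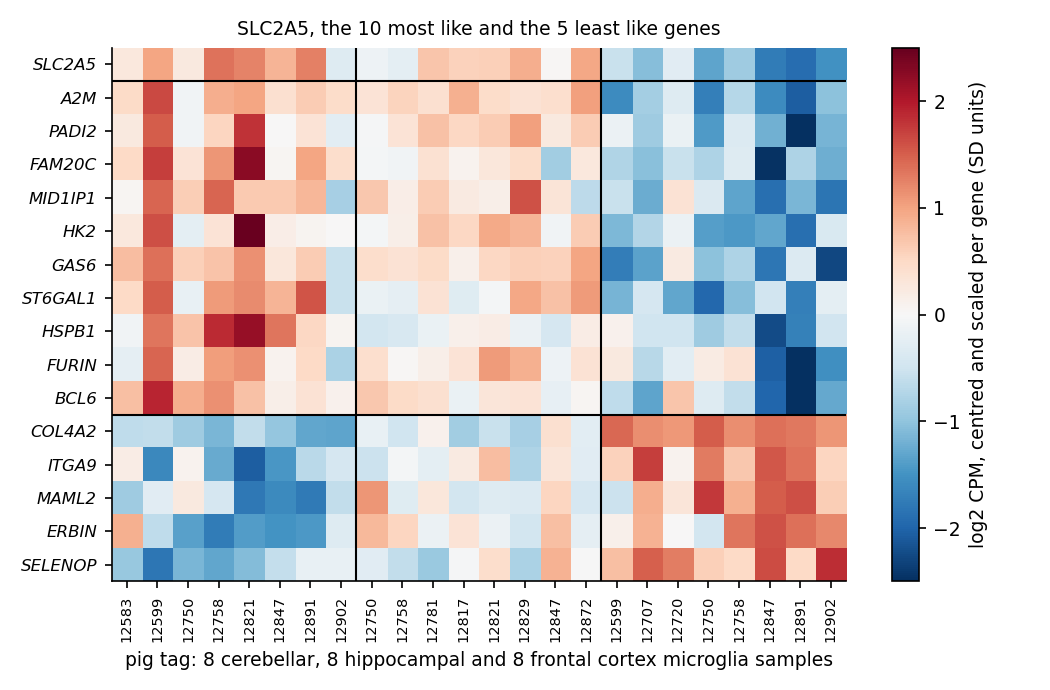
Log2 CPM of SLC2A5 (top row), the 10 genes with the highest and the 5 with the lowest Pearson's r to it (rows), centred and scaled per gene in SD units (colour), in 24 microglia samples named by pig tag and grouped by region (columns). The top 11 rows are mostly low (blue) in the frontal cortex samples, and the last 5 mostly high (red).

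With each region's mean removed, r was lower for all 10, from 0.45 for GAS6 to 0.74 for PADI2, and 0 of the 10 remained among the 10 highest. Between 6 and 10 of them remained when 1 pig was left out. The lowest count came without pig 12891 and without pig 12902. Of the genes listed above, SLC2A9 (r = 0.77), HK1 (0.71), MLXIPL (0.67) and TKFC (0.62) were on the high side over the 24 samples, and THRB (-0.60) and AKR1B1 (-0.56) on the low side. With region means removed r was 0.76 for SLC2A9, 0.44 for HK1, 0.54 for MLXIPL, 0.37 for TKFC, -0.31 for THRB and 0.13 for AKR1B1. The microglia reference genes ran from -0.44 for BLNK to 0.80 for C3, the complement component, which was at 4830 ± 700, 3471 ± 370 and 2363 ± 463 CPM in cerebellar, hippocampal and frontal cortex microglia. C3 was also the 1 reference gene of 14 called between regions (adjusted p = 3.35e-05, edgeR). For TMEM119 r was 0.26 and for P2RY12 -0.40. With region means removed r was 0.32 for C3, and the reference genes ran from -0.21 for BLNK to 0.76 for ABI3. ALDOA, at 0.39 over the 24 samples, had 0.78 with region means removed.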

How the data were processed

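The authors used BBtools for trimming and HISAT2 for alignment of the paired reads to Sscrofa11.1, and deposited raw gene counts from StringTie without normalization, 1 column per sample. Groups and pig tags were taken from the sample labels, and the numbers of pigs given here count these tags and differ from those in the study's text. The labels name no sequencing batch. Counts were kept for 11633 of 31907 genes, those above 10 CPM in each sample of some group, as in the study's methods. They were TMM-normalized and fitted with edgeR 4.0.16 (quasi-likelihood, robust; R 4.3.3) in 1 model of the 5 groups, with Benjamini-Hochberg adjustment over the tested genes. Calls needed an adjusted p under 0.01 and a fold over 3 (macrophages), over 4 (tissue) or any fold (regions, F test). Standard errors came from the F statistic. log2 CPM used a prior count of 2. The script was tested on simulated data.

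The tags name animals, so equal tags pair the samples. Over 25 same-pig pairs the deviations from group means had a mean correlation of 0.0791 (-0.374 to 0.433). Over 347 pairs of different pigs it was -0.00499 (-0.573 to 0.645). The within-pig correlation that limma estimated for the random effect was 0.205. Alternatives were limma-voom (limma 3.58.1), DESeq2 1.42.0, RLE factors, library size only, filterByExpr or no filter, the pig as a replicate block, only the groups compared and each sample left out. Symbols came from the study's supplementary tables (3689 identifiers) and a gene name table (11778 more). Exon lengths came from RefSeq for 14246 genes, and RefSeq marks its SLC2A5 model as modified relative to the genome. The columns of the authors' own comparisons in the supplementary tables were not used.

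Named genes are SLC2A5, every SLC2 family and fructose or polyol gene with a row, the called genes of the glycolysis and carbohydrate response lists, the microglia reference genes next to SLC2A5, the 10 most and 5 least correlated genes, and the nearest annotated neighbours. The values of 1 fructose gene are not reported here. SLC2A5 and all lists were chosen with earlier results of these data known. Other genes given with values (GAPDH, PKM, MLX, HK1, PFKFB3, C3, BLNK, ABI3, TMEM119, P2RY12) were named after their values were seen. Tags are separate animals, and where samples share an animal p-values without the block treat them as independent.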

Additional observations from a re-analysis of the deposited data

Results flagged for a closer look

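By chance alone about 1 in 20 groups tested would hold a value flagged as far from the rest. In 44 groups of 4 or more samples of the tested SLC2 family and fructose and polyol genes, 1 value stood far from the rest of its group. It was AKR1B1, aldose reductase, in hippocampal microglia of pig 12847, at a log2 CPM of 7.461 (176 CPM), while the other 7 samples of the group lay between 6.59 and 6.978. No value of SLC2A5 stood apart in this way.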

How the results depend on the processing

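The direction of every SLC2A5 difference held with limma-voom, DESeq2, other scaling factors, the replicate block and each sample left out. It was not computed for the other filters or for only the groups compared. Of 280 recomputed counts and SLC2A5 values, 268 stayed within the tolerance set for a change. That tolerance was wide beside the regional differences. It passed a cerebellar over hippocampal log2 fold change of 0.40 with the edgeR block, against 0.15 in the main fit. The count therefore says little about the size of those differences. With the pig as a replicate block in edgeR the log2 fold change of SLC2A5 over alveolar macrophages was 4.36 instead of 3.86, and 85 genes were called between regions instead of 236. With the pig as a random effect in limma-voom these were 3.96 and 333. The edgeR block changed the calls of SLC2A13, AKR1B1, FBP1, ENO1, PKM and PFKFB2 in at least 1 comparison. Genes called between regions numbered 790 with DESeq2, 144 with only the groups compared and 154 to 335 with 1 sample left out (154 without the cerebellar microglia of pig 12750). With filterByExpr or no filter, which test more genes, 4659 and 5060 genes were called against macrophages and 7083 and 7868 against tissue. Of the 10 genes most like SLC2A5, 0 remained with region means removed and 6 to 10 with 1 pig left out. No called list member changed direction, but 10 of 88 list member differences, none of them called, took both signs, among them KHK (-0.14 to 0.31) and MLX (-0.09 to 0.35) against tissue and SLC2A6 (-0.09 to 0.35), SORD (-0.17 to 0.22) and HK1 (-0.28 to 0.04) against macrophages. Of 3250 recomputed list values 17 lost and 37 gained a call or a count. GAPDH, PKM and LDHA passed the fold threshold against tissue with RLE factors or DESeq2 (log2 fold changes of -2.05, -2.14 and -2.10). The alveolar macrophage group has 3 samples and tissue 4, which limits both comparisons. SLC2A5 had at least 193 counts in every sample, but these may include PCR copies and are not a number of molecules. The causes of these shifts were not tested, except that fewer samples or more tested genes enter by construction.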
